A study of Mus musculus with 23 samples.

Results

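The sites described here are the weaker binding sites of the nuclear receptor LXRβ at which no binding of the NF-κB subunit p65 was listed. They were selected on measured values. A site was taken from the LXRβ ChIP-seq peak list of GW3965-treated RAW264.7 cells if its height was below 20 and if it shared no base with a peak of any of the 4 p65 lists. Height is the authors' normalized tag count, which states the sequenced tags under a peak per 10000000 tags of the library. By this rule 1188 of the 2743 LXRβ peaks were members. The other LXRβ peaks fell into 1223 weaker sites with a p65 peak after Kdo2-Lipid A (KLA), 42 weaker sites with p65 in untreated cells only, 173 strong sites (height of 20 or more) without p65 and 117 strong sites with p65.

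Of the 23 samples of the series, the 5 with peak lists were analysed. LXRβ was mapped in a RAW264.7 mouse macrophage line, labelled C57BL/6, that carries the biotin ligase BirA and LXRβ with a peptide tag (BLRP) that BirA biotinylates. The cells were serum-starved overnight and then given 1 µM of the synthetic LXR agonist GW3965 for 2 h, and chromatin was pulled down on streptavidin. Because LXRβ was a tagged protein in a stable line, its sites need not be those of the endogenous receptor. p65 was mapped with an antibody in peritoneal macrophages of male C57BL/6 mice aged 6 to 8 weeks, collected 3 to 4 days after a thioglycollate injection. All mice carried floxed NCoR alleles (NCoR fl/fl). Wild type cells were Lys M-Cre -/- and NCoR knockout cells Lys M-Cre +/-, a Cre driver active in the myeloid lineage, and whether any cells escaped deletion is not shown by peak lists. Macrophages of both genotypes were serum-starved overnight, and a p65 library was made from each without treatment and another 1 h after adding KLA (100 ng/ml), an endotoxin lipid that activates TLR4. Each group was 1 library, so no result has a replicate check and no test between groups was run. Intervals are exact at 95% and cover counting error only.

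LXRβ binds DNA as a partner of the retinoid X receptor, typically at spaced direct repeats of a short half-site, and switches on genes of cholesterol efflux and fatty acid synthesis when oxysterols or synthetic agonists bind it. Without ligand, LXRs hold the corepressor NCoR at their target genes, and in macrophages they are also known for restraining inflammatory genes that NF-κB drives. p65 enters the nucleus within minutes of TLR4 signalling and binds κB sites in chromatin that macrophage factors such as PU.1 and C/EBP have opened. The 2 maps come from different cells and treatments, so presence or absence of p65 at a site refers to the same place in the genome and not to the same cell. Positions are on mouse build mm9. Genes near the sites and the DNA sequence under them were not analysed here.

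Most of these sites rested on few tags. The LXRβ library held 11758634 tags, and a peak needed 9 to be listed. By the listed heights 1 tag was worth 0.910, whereas the total in the header would give 0.850. Which tag total the heights were scaled to is not stated. The median member held 11 tags (height 10.0), with quartiles of 10 and 13 tags (9.1 and 11.8). The lowest step, 9 tags at a height of 8.2, held 197 members, and 669 members had 9 to 11 tags. Only 76 members had 18 tags or more. The exact Poisson interval of a peak of 11 tags ran from 5.00 to 17.9 in height. From 13 tags upward the interval reached 20, as was the case for 375 members, so for these the side of the threshold was not fixed by the count.

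The values on either side of the threshold show how small the step was. The tallest members were 16 sites of 21 tags, with a height of 19.1 (interval 11.8 to 29.2). The lowest strong sites without p65 were 14 sites of 22 tags, with a height of 20. Among the tallest members, in the order of the list, were chr1:61030872-61030992, chr4:126218004-126218124, chr6:145809019-145809139, chr7:29557103-29557223 and chr7:56527978-56528098. Their fold over the surrounding 10000 bp, the authors' ratio of tag densities, lay between 12.2 and 27.6. Each had the lowest input value of the list, 1.4 tags. The site on chromosome 4 had a wild type KLA p65 peak of height 42.4 centred 269 bp away and no knockout KLA p65 peak within 69313 bp. At the other 4 sites the nearest p65 centre of any list lay 3275, 5582, 6088 and 32606 bp away. Among strong sites just above the threshold, chr12:3344369-3344489 and chr16:21596208-21596328 had p65 centres of both KLA lists 392 to 825 bp away, and chr17:17771123-17771243 had none within 8797 bp. The 2 sides of the threshold thus both held sites close to and far from p65.

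Which p65 list removed a weaker LXRβ peak from the set was counted next. Of the 2453 weaker peaks, 716 touched a p65 peak of both KLA lists. Among the KLA lists, 349 touched the wild type one only and 158 the knockout one only. Some of these also overlapped an untreated list. The wild type KLA list was the sole p65 list touched by 324 peaks, and the knockout KLA list by 143. A further 42 overlapped p65 in untreated cells alone, and 37 of those were listed in the untreated knockout library only. The wild type KLA library held 2120392 tags and gave 30021 peaks with no input set against it. The knockout KLA library held 1673506 tags and gave 22585 peaks, called over an input like the other lists. The untreated libraries held 777228 (wild type) and 786121 tags (knockout). The header states a threshold of 5 tags for p65, but the lowest wild type KLA height, 18.9 at 4.72 per tag, is that of 4 tags. A site without a listed peak may still hold a few p65 tags. With p65 peaks of 10 tags or more alone, 1631 weaker LXRβ peaks would have been free of p65 in place of 1188.

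The share of LXRβ peaks without p65 did not move in 1 direction with LXRβ height. Over all LXRβ peaks it was 49.6%, and it was 48.4% (Clopper-Pearson interval 46.4 to 50.4) of weaker and 59.7% (53.8 to 65.3) of strong peaks. Among peaks of 9 tags, 197 of 336 lacked p65 (58.6%, 53.2 to 63.9). The share was 53.4% at 10 tags, 47.0% at 11 and 42.0% (36.7 to 47.4) at 12. From 13 to 21 tags it lay between 43.5% and 46.7%. Above the threshold it was 58.5% (49.5 to 67.0) at 22 to 29 tags and 65.6% (55.2 to 75) at 30 to 49. At 50 to 161 tags it was 53.1% (40.2 to 65.7), an interval that covers the shares on both sides. The lowest shares therefore lay between 12 and 21 tags, and those at 9 tags and at 22 to 49 tags were higher. Since p65 overlap and height chose the members, these shares describe the set and were not tested. Without peaks that had stacked tags or input above the lowest value, both defined further on, the shares were 47.7% of weaker and 61.3% of strong peaks, and 55.6% at 9 and 41.4% at 12 tags.

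**Figure D1:**
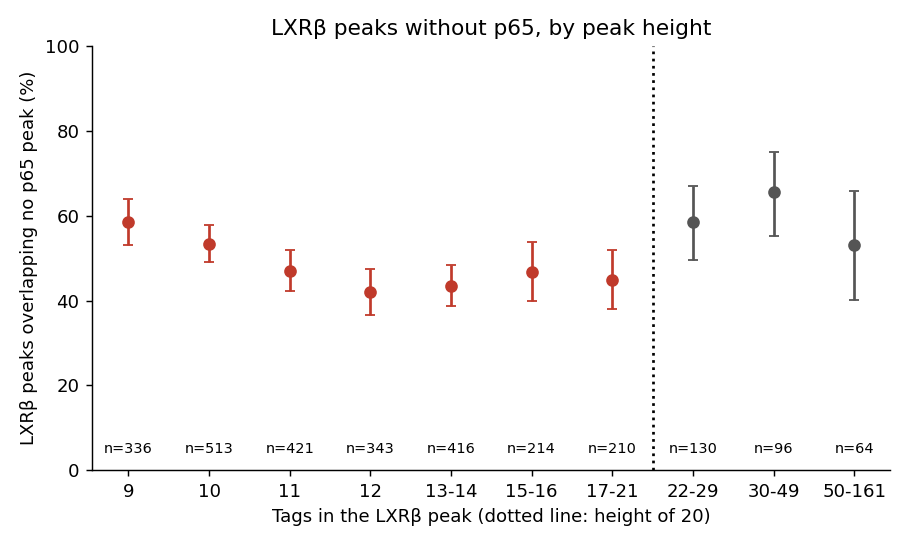
Share of LXRβ peaks that overlapped no p65 peak (vertical axis, percent) by the number of tags in the LXRβ peak (horizontal axis), with exact 95% intervals and the number of peaks in each step. Red steps lie below the height of 20 and grey steps above it, and the lowest point, 42.0%, is at 12 tags.

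Lack of overlap did not mean distance from p65. The nearest p65 centre of any list lay a median of 4444 bp from a member, with quartiles of 810 and 21278 bp. A p65 centre lay within 500 bp of 216 members (18.2%, 16.0 to 20.5) and within 1 kb of 329 (27.7%, 25.2 to 30.3), against 27.9% of all 1361 LXRβ peaks without p65. For the 173 strong sites without p65 the share within 1 kb was 29.5% (22.8 to 36.9), so the interval of the strong sites covers the value of the weaker ones. Within 10000 bp the shares were 62.3% (59.5 to 65.1) and 67.6% (60.1 to 74.5). The closest was chr16:16870744-16870864, of height 10.9, with a wild type KLA p65 peak of height 66.0 centred 128 bp away. Next came chr11:51725112-51725232 and chr12:3349652-3349772, both of height 8.2, each with a wild type KLA centre at 129 bp. Their p65 heights were 33.0 and 42.4. In knockout KLA cells the nearest centres to these 3 sites lay 140628, 4004 and 4458 bp away.

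At the other extreme, 160 of the 1188 members lay over 50 kb from any listed p65 peak, as did 177 of all 1361 LXRβ peaks without p65. A p65 centre lay within 50 kb of 86.5% (84.5 to 88.4) of members. The share was 87.0% of all LXRβ peaks without p65 and 90.2% (84.7 to 94.2) of the strong ones. The farthest member was chr8:102372669-102372789, a site of 9 tags with its nearest p65 centre 3389127 bp away and its nearest LXRβ neighbour 4215345 bp away. Then followed chr14:90677038-90677158 (10 tags, 3.0 input tags), at 2331587 bp from p65, and chr1:111251042-111251162 (10 tags), at 1764434 bp. All 3 stood at or within 1 tag of the calling threshold.

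The distance depended on the p65 list. The median distance was 6247 bp to wild type KLA p65 and 11049 bp to knockout KLA p65. It was 170084 bp to untreated knockout and 710090 bp to untreated wild type p65. The order follows the lengths of the lists, 30021, 22585, 2227 and 702 peaks, and a longer list gives shorter distances by number alone. Counted within 1 kb, 326 members had a KLA p65 centre. Of these, 174 had one in both genotypes, 104 in wild type only and 48 in knockout only. A wild type KLA centre lay within 1 kb of 23.4% of members and 23.8% of all LXRβ peaks without p65. For knockout KLA centres the shares were 18.7% and 18.4%, so neither was particular to members. Untreated p65 centres were within 1 kb of 28 members, 11 in wild type and 21 in knockout cells, and for 3 members it was the only p65 nearby. These were 0.926% of members in wild type and 1.77% in knockout cells, against 0.955% and 2.13% of all LXRβ peaks without p65.

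**Figure D2:**
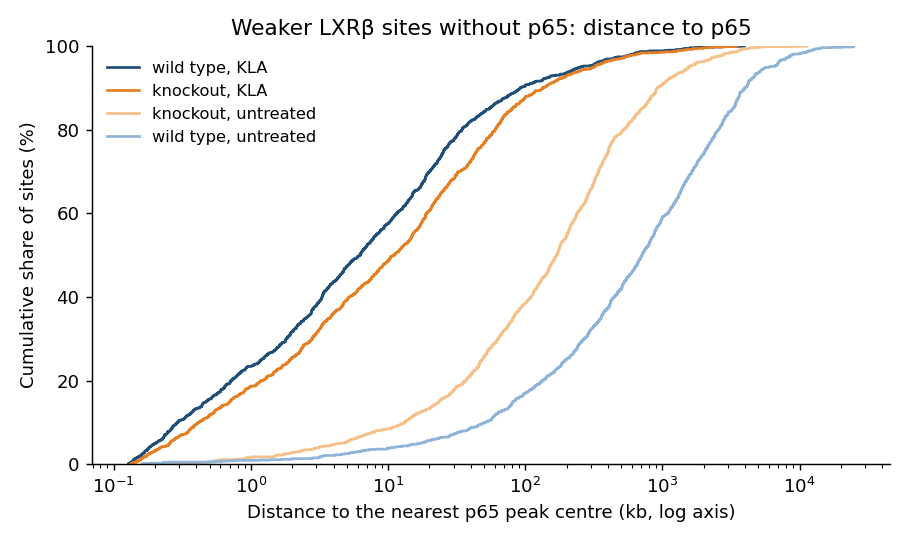
Cumulative share of the 1188 weaker LXRβ sites without p65 (vertical axis, percent) by distance from the site's centre to the nearest p65 centre of each list (horizontal axis, kb on a log axis). The KLA curves run far to the left of the untreated ones, with medians of 6247 bp for wild type and 11049 bp for knockout cells.

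The height of the p65 peak nearest to each site, where it lay within 1 kb, was read list by list. This gave 272 wild type KLA p65 peaks with a median height of 47.2 (quartiles 33.0 and 84.9, highest 382). Further p65 peaks within 1 kb of a member were not counted here. The median of the whole list was 42.4, and that of wild type KLA peaks lying on weaker LXRβ sites was 56.6. In knockout KLA cells the 219 neighbouring p65 peaks had a median of 59.8, against 53.8 for the list and 71.7 for peaks on weaker LXRβ sites. After KLA, p65 peaks beside members thus had a median above that of the list and below that of peaks on weaker LXRβ sites, in each genotype. In untreated cells the few neighbouring peaks had medians below those of their lists, at 64.3 against 77.2 for 11 wild type and 63.6 against 76.3 for 21 knockout peaks. Both medians were the lowest heights of their lists, in which 1 tag was worth 12.9 and 12.7.

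Whether NCoR loss went with a change in this neighbouring p65 was read from the wild type KLA peaks nearest to a member and within 1 kb. At 151 of these sites the wild type and knockout KLA peaks overlapped each other. Wild type peaks there had a median height of 75.5 and knockout peaks one of 71.7. The knockout peak was the taller at 76 of the 151 (50.3%, 42.1 to 58.6), against 57.8% of all 16203 shared KLA sites. The neighbouring sites were taller than shared sites in general (wild type median 75.5 against 56.6), so both sets were also compared within 2 ranges of wild type height. That height is 1 of the values compared, so a lower share in the upper range follows from the split, and only the neighbouring and all sites of 1 range are to be set side by side. Among sites with a wild type height above 56.6, the knockout was the taller at 40.0% (30.3 to 50.3) of 100 neighbouring sites and 39.8% of all such sites. At or under 56.6 the shares were 70.6% (56.2 to 82.5) of 51 neighbouring sites and 75.3% of all. No knockout KLA peak was lower than 29.9, while wild type ones began at 18.9. Below 29.9 in wild type the knockout was thus the taller by the calling limit alone, so the lower range does not measure an effect of NCoR loss. Within each height range the interval of the neighbouring sites covered the share of all sites. Each list had a single peak width, which was 132 bp for wild type KLA and 144 bp for knockout KLA. With heights divided by that width the shares were 37.7% (30.0 to 46.0) of neighbouring and 48.2% of all sites. Within the upper range they were then 27.0% (18.6 to 36.8) and 30.1%, and within the lower 58.8% (44.2 to 72.4) and 65.8%, so the neighbours' interval left out the share of all sites only where the ranges were pooled.

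p65 peaks became sparser with distance from a member. Wild type KLA p65 centres numbered 163 per Mb (Poisson interval 132 to 199) at 250 to 500 bp from a member's centre, 95.1 at 500 to 1000 bp, 69.0 at 1 to 2 kb and 35.7 (34.5 to 36.9) at 10 to 50 kb. In knockout KLA cells the densities in the same bands were 152, 81.6, 51.8 and 26.7 per Mb. Around weaker LXRβ sites with KLA p65, whose own p65 peak lies closer than these bands, wild type p65 centres numbered 141 per Mb (121 to 164) at 500 to 1000 bp and 48.4 (47.1 to 49.8) at 10 to 50 kb. At both distances the density around members was lower. The same p65 lists split these classes, so this gap is not independent of the rule. At 250 to 500 bp the intervals overlapped. In that closest band, centres of 1 p65 list had to lie at least 264 bp apart in wild type and 288 bp in knockout lists, which limits p65 beside a p65-bound site. Around strong sites without p65 the wild type densities were 162 (88.5 to 272) at 250 to 500 bp and 45.4 (42.0 to 49.1) at 10 to 50 kb. The closest bands of the weaker and strong sites without p65 were thus alike within their intervals, and in the widest band the weaker sites had the lower p65 density. One p65 peak can count for several LXRβ sites, so these intervals are too narrow.

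**Figure D3:**
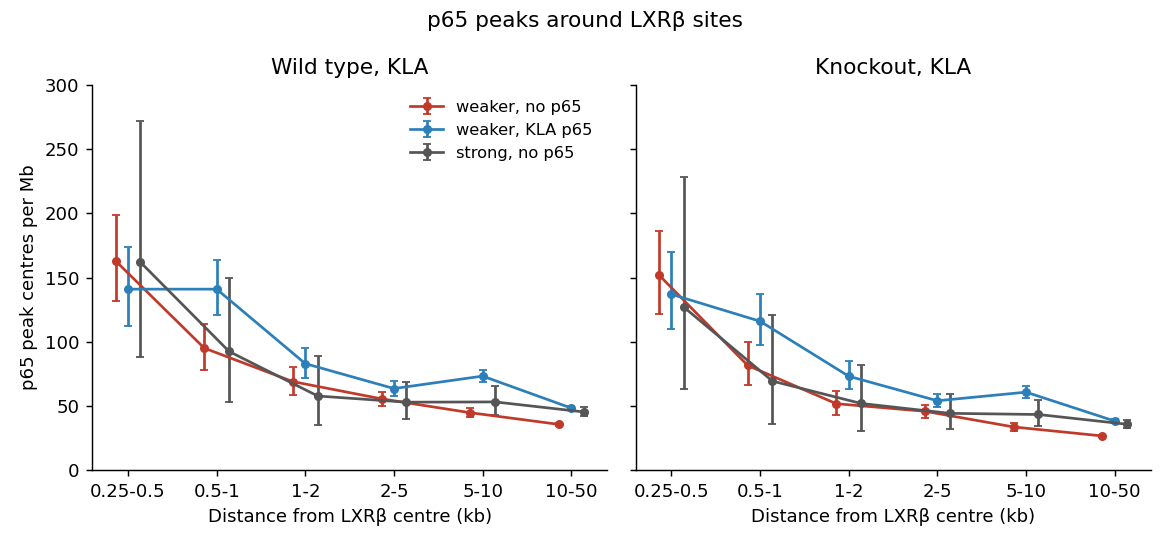
Density of KLA p65 peak centres (vertical axis, centres per Mb) by distance from the LXRβ centre (horizontal axis, kb), in wild type (left) and knockout cells (right), with Poisson intervals. Red marks weaker sites without p65, blue weaker sites with KLA p65 and grey strong sites without p65. Red falls from band to band, from 163 to 35.7 per Mb in wild type cells, whereas blue is higher at 5 to 10 kb (73.3) than at 2 to 5 kb (63.6).

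The members differed among themselves in how their tags were placed, and this went with distance from p65. The file gives each peak a fold that compares its tags with the number of distinct positions expected for them, with peaks over 2.00 removed by the authors. Values above 1.2 are called stacked here, since many tags then share few positions. The limit was chosen after the values were seen. Stacked tags were found at 77 members (6.48%, 5.15 to 8.03), against 4.78% of all LXRβ peaks and 1.39% (0.812 to 2.22) of weaker sites with KLA p65. Among strong sites the share was 4.62% (2.02 to 8.91) without p65 and 5.98% (2.44 to 11.9) with p65. Both intervals cover the members' value. Of the 42 weaker sites with untreated p65 only, 22 were stacked (52.4%, 36.4 to 68.0). Stacked members had a median of 10 tags after the authors' limit of 1 tag per bp. Their median of listed total tags, which the authors had scaled to values that are not whole, was 17.5. The other 1111 members had medians of 11 and 11.7.

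By distance, 30.0% (23.0 to 37.7) of the 160 members over 50 kb from p65 were stacked. Within 50 kb the share was 2.82% (1.90 to 4.03) of 1028, and within 500 bp 2 of 216 (0.926%). The median height was 10.0 in every distance band, but stacking was itself more frequent among lower members, and 76 of the 160 remote members had 9 or 10 tags, against 395 of 1028. The shares were therefore also read within tag steps. Among members of 9 or 10 tags the stacked share was 42.1% (30.9 to 54.0) over and 3.54% (1.95 to 5.88) within 50 kb of p65. Among those of 13 to 21 tags it was 16.7% (6.97 to 31.4) and 1.80% (0.664 to 3.88). The remote members thus had the higher stacked share in the low as well as the high part of the set. The most stacked members were chr17:23013347-23013467 (12 tags, 27.2 listed total tags), chr18:73878389-73878509 (12 and 27.2) and chr18:52179470-52179590 (9 and 20.4), all at a fold of 1.96, close to the authors' limit.

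Input tags went the same way. The lowest input value in the list was 1.4, which 1007 members carried, and the others had 2.0 to 6.0. Input above the lowest value was listed for 181 members (15.2%, 13.2 to 17.4), against 16.7% of all LXRβ peaks and 14.9% of weaker sites with KLA p65. Over 50 kb from p65 the share was 26.2% (19.6 to 33.8), and within 50 kb 13.5% (11.5 to 15.8). The highest input values belonged to chr1:195494060-195494180 (6.0, with 24.3 total tags), chr1:150221105-150221225 (5.0) and chr17:23013347-23013467 (5.0). All 3 were also stacked, with folds of 1.62, 1.24 and 1.96.

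The focus ratio, the authors' fraction of tags lying on the side their strand predicts, and the fold over local signal also differed with distance. The median focus ratio was 0.737 within 500 bp of p65, 0.769 over all members within 50 kb and 0.844 over 50 kb from it. The median fold over local signal lay between 9.25 and 9.84 out to 5 kb, was 13 at 5 to 50 kb (10.9 over all within 50 kb) and 15.9 farther away. Among members with neither stacked tags nor input above the lowest value, the 85 over 50 kb from p65 had medians of 0.800 and 14.1, and the 870 within 50 kb had 0.768 and 10.7. Between over and within 50 kb, both gaps were thus smaller without those peaks and kept their direction. Whether stacked tags or input have a part in the listing of these sites was not tested.

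**Figure D4:**
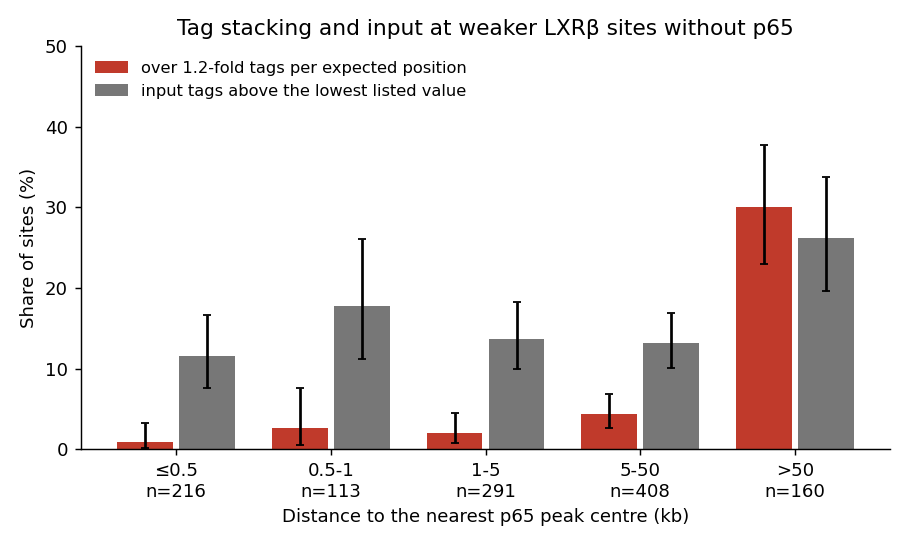
Share of weaker LXRβ sites without p65 (vertical axis, percent) with stacked tags (red) and with input above the lowest listed value (grey), by distance to the nearest p65 centre (horizontal axis, kb), with exact 95% intervals and the number of sites per band. The band over 50 kb stands above the others, at 30.0% and 26.2%.

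Distance to other LXRβ peaks was not used to choose the sites, but overlap with p65 was. Another LXRβ peak of any class lay within 50 kb of 472 members (39.7%, 36.9 to 42.6), against 45.0% of all LXRβ peaks. The share was 47.5% (44.7 to 50.3) of weaker sites with KLA p65 and 58.4% (50.7 to 65.8) of strong sites without p65. For strong sites with p65 it was 59.0% (49.5 to 68.0). Among these classes members thus had the lowest share, and their interval overlapped none of the others. LXRβ peaks close together count for each other, so these intervals are too narrow. The 42 weaker sites with untreated p65 only had a lower share, 26.2% (13.9 to 42.0), with an interval that covers the members' value. Since the share also varied with distance from p65, as given below, gaps between classes with and without p65 are not independent of the rule. Within 1 kb the weaker classes were alike, at 5.98% (4.70 to 7.48) and 6.13% (4.85 to 7.63). By distance from p65, the shares with an LXRβ neighbour within 50 kb were 46.8% up to 500 bp, 56.6% (47.0 to 65.9) at 500 to 1000 bp, 51.5% at 1 to 5 kb, 34.8% at 5 to 50 kb and 9.38% (5.34 to 15) farther away. Members remote from p65 were thus mostly remote from other LXRβ peaks as well. With stacked peaks and peaks with input left out, 11.8% (5.79 to 20.6) of 85 members over 50 kb from p65 and 40.2% (37.0 to 43.6) of 870 within 50 kb had such a neighbour. Without stacked peaks and peaks with input the share was 37.7% (34.6 to 40.9) of 955 members and 42.5% (39.5 to 45.6) of weaker sites with KLA p65, whose intervals overlap.

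Nearness to a strong LXRβ peak was low in both weaker classes. A strong LXRβ peak lay within 5 kb of 22 members (1.85%, 1.16 to 2.79) and of 36 of the 173 strong sites without p65 (20.8%, 15 to 27.6). For weaker sites with KLA p65 the share was 1.72% (1.07 to 2.61), and for all LXRβ peaks 3.17%. Where another LXRβ peak lay within 10 kb of a member, the nearest was another member in 43.8% of 219 cases, a weaker site with p65 in 42.9% and a strong site in 13.2%. These classes made up 43.3%, 46.1% and 10.6% of the other LXRβ peaks, so the neighbours were mixed about as the list was.

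**Figure D5:**
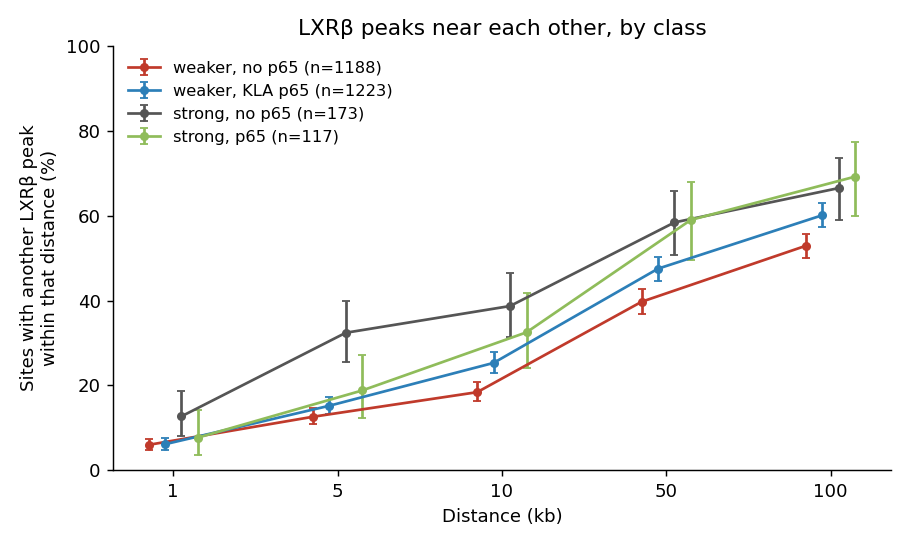
Share of LXRβ sites with another LXRβ peak within a given distance (vertical axis, percent) by that distance (horizontal axis, kb), for 4 classes, with exact 95% intervals. Among the 4 classes shown, weaker sites without p65 (red) have the lowest share at 50 kb, 39.7%, and strong sites without p65 (grey) reach 58.4%. The 42 weaker sites with untreated p65 only are not shown (26.2%).

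Within 100 kb of 628 members (52.9%) lay another LXRβ peak of some class, but few places held several members. Of the 100 kb windows that held a member, 903 held 1, 101 held 2, 22 held 3, 3 held 4 and 1 held 5. The window of 5 was chr7:57000001-57100000, in which all 5 LXRβ peaks were members and no p65 list had a peak. Along it the heights were 16.4 at chr7:57033986-57034106, 10.0 at chr7:57041469-57041589, 14.6 at chr7:57042593-57042713, 10.0 at chr7:57061858-57061978 and 16.4 at chr7:57082085-57082205. None was stacked, 1 of them had 2.0 input tags and the others the lowest value. The nearest p65 centre lay between 58722 and 106821 bp from them. This group therefore differed from most remote members in having close LXRβ neighbours.

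In the other 3 windows members lay among strong or p65-bound sites. In chr13:43400001-43500000, 4 members of height 10.9 to 19.1 lay among 4 strong sites without p65, the tallest of height 43.7 at chr13:43472095-43472215. The 8 LXRβ peaks spanned 23981 bp, wild type KLA p65 had 3 peaks in the window and the other p65 lists none. In chr7:29500001-29600000, 4 members (10.9 to 19.1) also lay among 4 strong sites without p65, the tallest of height 28.2. Here the wild type KLA list had 8 p65 peaks and the knockout KLA list 5, and the untreated lists had 2 and 1, none of them on an LXRβ peak. In chr6:125300001-125400000, 4 members (10.0 to 14.6) shared the window with 3 weaker sites with KLA p65 and 1 strong site of height 27.3. KLA p65 had 7 peaks there in wild type and 3 in knockout cells. Members within 1 window could thus lie beside LXRβ sites with p65 or beside strong sites without it.

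Members were found on all 21 chromosomes with LXRβ peaks. Their share of a chromosome's LXRβ peaks, 43.3% over the genome, ranged among autosomes from 32.3% (23.1 to 42.6) on chromosome 16 and 34.4% (27.0 to 42.5) on chromosome 10 to 53.7% (44.4 to 62.8) on chromosome 8. On the X chromosome 16 of 27 peaks were members (59.3%, 38.8 to 77.6), and on Y both peaks were. The intervals of chromosomes 16 and 10 lay just below the genome's share and that of chromosome 8 just above it, and all other autosomes had intervals that covered it.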

How the data were processed

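ChIP-seq peak lists of 5 libraries were used. The submitters' processing notes name Bowtie 0.12.7, HOMER (its version is not given in the sources used here) and build mm9. Peaks were called per library with HOMER findPeaks in factor mode at a false discovery rate of 0.001, with at most 1 tag counted per bp, per the file headers. The deposited height is a signal, while the deposited score per peak, always whole, is called tags here. Folds over local signal, over input and over expected positions are the authors' ratios. The deposited focus ratio is a fraction. These values were used only to describe peaks within a list. The members and classes were chosen with earlier results of these data known.

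Overlap meant 1 bp or more, and distances ran between peak centres (pandas 2.3.3, numpy 2.4.6 and scipy 1.17.1 under Python 3.11.15). Overlap counting was checked on simulated peaks, and it gave the same peaks as bedtools 2.31.1. Shares have exact Clopper-Pearson intervals and densities and heights exact Poisson ones. Sites named were the tallest members and the lowest strong sites (ties in list order), the 3 nearest to and farthest from p65, the 3 with most input and the 100 kb windows with most members (ties kept). The most stacked sites were added after their values were seen. Motif and gene-start shares were not run, because the reference tables used here are of build GRCm38.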

Additional observations from a re-analysis of the deposited data

How the results depend on the processing

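The number of members, 1188, stayed within 1.5 times under 11 of 12 alternatives, from 955 without stacked peaks and peaks with input to 1631 with p65 peaks of 10 tags or more. With LXRβ peaks of 12 tags or more it was 519, since the stricter limit drops the lowest tag steps. The share with a p65 centre within 1 kb, 27.7%, was 18.2% within 500 bp, 35.9% within 2 kb and 13.6% with p65 peaks of 10 tags or more, where fewer p65 peaks remain to be near. The share with another LXRβ peak within 50 kb, 39.7%, was 18.4% within 10 kb and 52.9% within 100 kb. These shifts follow from the distance or list used. The stacked share over 50 kb from p65, 30.0%, was 18.1% at a fold above 1.5 and 36.2% above 1.1. Within 50 kb it was 1.17% and 6.91% in place of 2.82%, so the order of both held at each limit. Alternatives with a single KLA list, without stacked peaks and peaks with input, the lower height limit for LXRβ neighbours and the other stacking limits were chosen after seeing the data. The DR4 motif and gene-start alternatives were not run. No paired analysis was possible because each group is 1 library and the result comes from no test. Depth limits the set at its lower edge, where 197 members sit on the 9 tags needed for a listing.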
